A study of Mus musculus with 4 samples.

Results

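Serpina12 and Serpinf1 are the 2 serpin genes described here, in a comparison of Erbb2-transfected NIH3T3 cells with untransfected NIH3T3 cells. NIH3T3 cells are an established line of fibroblasts from mouse embryos, and ERBB2, the product of Erbb2, is a cell-surface tyrosine kinase related to the EGF receptor. Both genes were picked by symbol, and because their log2 ratios on these arrays pointed in opposite directions, so their ratios are given as a description and carry no test. They are 2 of 6327 genes with a value on all 4 arrays, and each rests on 1 probe. RNA of the transfected line and of the untransfected line was hybridised together on 4 two-colour arrays, with the transfected sample in Cy5 on arrays 1 and 2 and in Cy3 on arrays 3 and 4. The design calls the arrays technical replicates, so there was 1 sample per line, and every SD and p-value below covers the spread between arrays only. The labels give overexpression of Erbb2 in the transfected line and name neither a vector, a promoter, a clone nor a time after transfection. The deposited values are log2 ratios whose direction is not stated. The likely direction is transfected over untransfected, and all signs would turn together if that reading were wrong.

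Serpins are a family of proteins that share a fold with an exposed reactive loop. Inhibitory members trap a target protease when it cuts this loop, whereas other members have lost that activity and act as chaperones, hormone carriers or ligands. Serpina12 encodes vaspin, a secreted inhibitor of the kallikrein protease KLK7 that was described as a product of visceral adipose tissue in rats. Serpinf1 encodes pigment epithelium-derived factor (PEDF), a secreted non-inhibitory serpin that binds collagen I and heparan sulphate and is known for blocking the growth of blood vessels. Fibroblasts and other connective tissue cells are a known source of PEDF.

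The promoter windows of both genes are shown because they are the regulatory sequence closest to the transcripts measured. Each is the stretch of 250 bases before the annotated start, read 5′ to 3′ on the gene's strand, and comes from RefSeq on GRCm38.p6, in which both symbols were matched. That build is the sequence table's own, since none is named for the array. The Serpina12 window lies at chr12:104044444-104044693 and the Serpinf1 window at chr11:75422624-75422873, both on the minus strand. Capitals mark matches on either strand to 7 short motifs, which were chosen with the sequences in view. The letters searched were TATAAA for the TATA box, GGGCGG for the GC box and CACCC for the box read by Kruppel-like factors. The others were TGANTCA for the AP-1 motif, CATGTG for the M-box, and CCAAT. For the E-box only the letters CACGTG were searched, and no other form of it. No matches overlapped.
Serpina12: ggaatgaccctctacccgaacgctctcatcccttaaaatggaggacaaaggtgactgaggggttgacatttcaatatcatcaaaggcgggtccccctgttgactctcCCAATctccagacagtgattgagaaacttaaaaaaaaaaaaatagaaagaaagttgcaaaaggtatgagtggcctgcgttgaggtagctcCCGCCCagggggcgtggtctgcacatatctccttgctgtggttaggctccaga
Serpinf1: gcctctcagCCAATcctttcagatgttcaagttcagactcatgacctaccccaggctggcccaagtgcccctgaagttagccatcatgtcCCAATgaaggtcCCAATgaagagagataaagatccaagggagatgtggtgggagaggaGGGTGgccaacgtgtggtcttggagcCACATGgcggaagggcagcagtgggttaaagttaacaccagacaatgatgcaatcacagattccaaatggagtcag

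The Serpina12 window held 1 GC box, on the reverse strand and ending 48 bases before the start, and 1 CCAAT. The Serpinf1 window held 3 CCAAT, 1 CACCC box and 1 M-box, the last 2 on the reverse strand. Over all 32851 windows of this length, 32.7% held a GC box, 33.8% a CCAAT, 52.0% a CACCC box and 12.3% an M-box. The letters of the TATA box, the AP-1 motif and the E-box form CACGTG were in neither window, and 12.4%, 6.75% and 6.02% of all windows held them. The windows had a G and C content of 48.4% (Serpina12) and 51.6% (Serpinf1), against a median of 52.4%. CCAAT was the motif that both windows had.

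Serpina12 had the highest mean log2 ratio of all 6327 genes. Its ratios were 3.19, 3.64, 4.48 and 3.37 on arrays 1 to 4, a mean of 3.67 ± 0.57 (SD, n = 4 arrays), which corresponds to a 12.7-fold higher level in the transfected line. All 4 values lay within 1.29 of one another and far above 0, and array 3 was the highest. With the transfected sample in Cy5 the mean was 3.41 and with it in Cy3 it was 3.93. On single arrays Serpina12 ranked between place 13 and place 32 from the top. No other gene had every array at or above 3.19, which is the lowest of the Serpina12 values themselves. The next highest mean, 2.84 ± 2.47 for the lipase gene Lipe, came with an SD close to its mean.

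Serpinf1 lay on the opposite side. Its ratios were -1.05, -2.21, -2.10 and -1.74 on arrays 1 to 4, a mean of -1.77 ± 0.52 (SD, n = 4 arrays), or a 3.42-fold lower level in the transfected line. Array 1 was nearest to 0 and the other 3 arrays lay close together. The mean was -1.63 with the transfected sample in Cy5 and -1.92 with it in Cy3. By its mean Serpinf1 ranked at place 97 from the bottom, and 1.52% of the genes had a lower mean. On single arrays it ranked between place 270 and place 456 from the bottom. A total of 53 genes, or 0.838%, had every array at or below -1.05, the highest Serpinf1 value, with Serpinf1 itself counted. Ratios of whole RNA pools cannot tell fewer cells with the transcript from less transcript per cell.

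**Figure D1:**
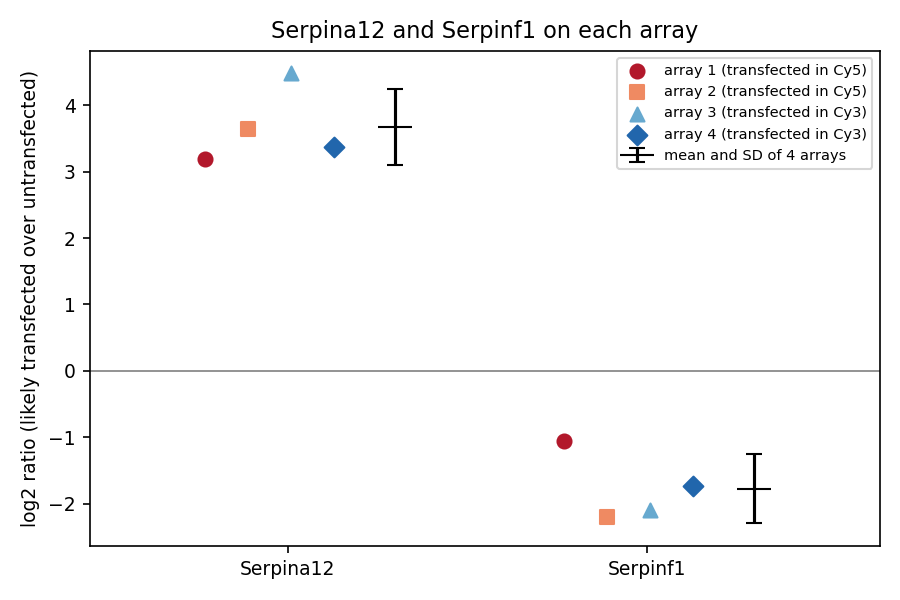
Log2 ratio (y axis) of Serpina12 and Serpinf1 on each of the 4 arrays, with colour and symbol giving the array and its dye orientation and the bar giving the mean and SD. Serpina12 lies between 3.19 and 4.48 and Serpinf1 between -2.21 and -1.05.

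On every array the 2 genes were far apart. Serpina12 minus Serpinf1 was 4.24, 5.84, 6.58 and 5.11 log2 units on arrays 1 to 4, a mean of 5.44 ± 1.0. The choice of the genes fixed the direction of this distance. The median of all gene means was -0.08. Relative to that median, Serpina12 lay 3.75 higher and Serpinf1 1.69 lower. Of all genes, 9.58% were above 0 on all 4 arrays, like Serpina12, and 13% were below 0 on all 4, like Serpinf1, which describes the background only, since the choice rested on these same ratios.

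**Figure D2:**
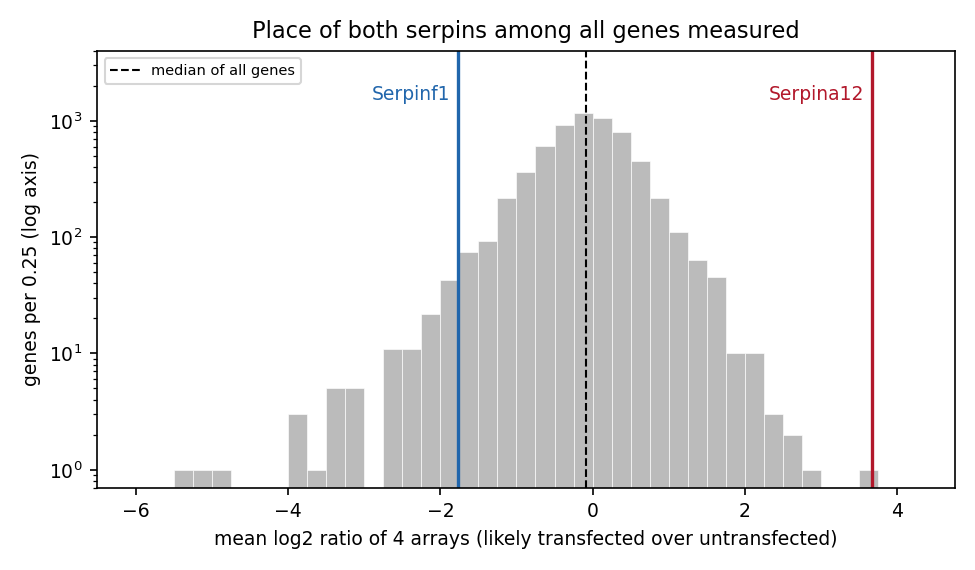
Number of genes (y axis, log scale) by mean log2 ratio of the 4 arrays (x axis, bins of 0.25) for the 6327 genes measured, with the means of Serpina12 (3.67) and Serpinf1 (-1.77) and the median of all genes (-0.08) as lines. Serpina12 stands alone beyond the right edge of the distribution and Serpinf1 lies in its left tail.

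The 2 genes differ in how firmly their values are tied to their names. The rows of arrays 2 to 4 slipped against those of array 1 in the lower part of the table. The Serpina12 probe is at row 1763, in the upper part, where rows were read as they stand. The Serpinf1 probe is at row 17645, where arrays 2 to 4 were read 3 rows higher, at row 17642. In a window of rows around each gene (1363 to 2163 and 17245 to 18000), with values limited to 3 either way, the Pearson correlation of array 1 with arrays 2 to 4, across probes of the same arrays, averaged 0.181 for Serpina12 as the rows stand and between -0.032 and 0.033 at 6 other offsets. For Serpinf1 it averaged 0.114 at an offset of 3 rows and between -0.062 and 0.011 at the other 6 offsets tried. These are descriptions of weakly correlated values in the same arrays whose rows were moved, and are no independent check of the offset. The Serpinf1 row as deposited held 0.32, -0.50 and 0.83 on arrays 2 to 4, so that the mean was -0.10. Read 2 rows higher the mean was -0.40, and read 4 rows higher it was 0.70. The lower level of Serpinf1 on arrays 2 to 4 thus rests on the offset of 3 rows. The array 1 value (-1.05) was read without an offset. It rests on the rows of array 1 matching the probe names. These correlations cannot check that match, since they show only how the arrays lie against one another.

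**Figure D3:**
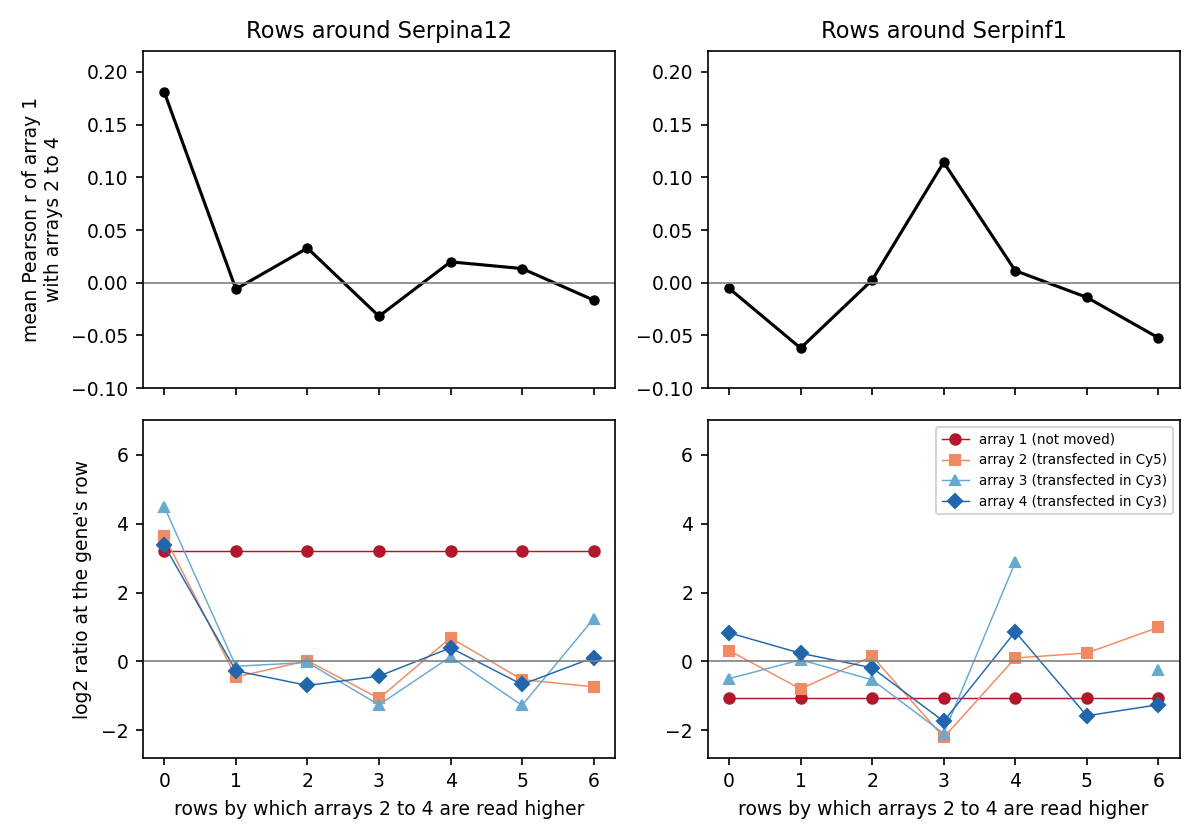
Upper panels: mean Pearson r of array 1 with arrays 2 to 4 (y axis) in a window of rows around Serpina12 (left) and Serpinf1 (right), by the number of rows by which arrays 2 to 4 are read higher (x axis). Lower panels: log2 ratio at the row of each gene on the 4 arrays at those offsets. The correlation is highest at 0 rows for Serpina12 and at 3 rows for Serpinf1.

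Neighbouring rows did not share these values. The row before Serpina12, named Arhgap28, had a mean of -0.33 and the unnamed row after it -0.36. The rows before and after Serpinf1, both unnamed, had means of 1.04 and -0.11 at the same offset.

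Other members of the family were mostly close to 0 or split between arrays. The table names 23 serpin genes, of which 13 had a value on all 4 arrays, 8 had fewer in the rows used and 2 lay in rows left out because their offset was unclear. Apart from Serpina12 and Serpinf1, 11 serpins were measured, with a median of -0.46, against -0.08 for all genes. Limma, fitted over all 6327 genes with a term for the dye orientation, called 0 of these 11 and 0% of all genes at an adjusted p under 0.05, with a smallest adjusted p over all genes of 0.105. At an unadjusted p under 0.05 limma had 1 of the 11, on the higher side, where all genes had 11.5%, made up of 7.49% on the lower side and 4.05% on the higher. In sign, 2 of the 11 were below 0 on all 4 arrays and 1 was above 0 on all 4, and the other 8 were mixed, where 22.6% of all genes kept 1 sign. The median of the 11 turned to 0.27 without array 2, where 14 serpins were measured. As with Serpinf1, most of these values rest on the row offsets. Only Serpina10 and Serpinh1 were read wholly from rows used as they stand. With rows as deposited the median was 0.13 over 9 serpins.

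Serpinh1, which encodes the collagen chaperone HSP47, was the lowest of the 11. One of its probes had -1.61, -1.85, -1.76 and -0.67 on arrays 1 to 4, a mean of -1.47 ± 0.54 (limma adjusted p = 0.331 with every probe fitted on its own). The other probe had values on 2 arrays only, -0.12 on array 1 and 1.7 on array 2. The probes disagreed, and averaging them gave a gene mean of -0.84 ± 0.70. Serpinb6a, an intracellular serpin, had the smallest spread of the family at -0.58 ± 0.06, below 0 on all 4 arrays (limma adjusted p = 0.487). These are averages of 2 probes, of which one lacked array 3. The other probe by itself had -0.17, -0.75, -0.66 and -0.58, a mean of -0.54 ± 0.26.

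Serpind1, which encodes the thrombin inhibitor heparin cofactor II, had 0.23, 1.77, 4.11 and 0.01 on arrays 1 to 4, above 0 on all 4 but with most of its mean of 1.53 ± 1.89 from arrays 2 and 3. Serpina10, the inhibitor of factor Xa that depends on protein Z, was the serpin at an unadjusted p under 0.05, with 1.11 ± 1.72 and an adjusted p of 0.385 in limma. Its values were 0.40, -0.97, 2.25 and 2.77 on arrays 1 to 4, with means of -0.29 with the transfected sample in Cy5 and 2.51 with it in Cy3. Limma had 0 of the 11 at that level when the dye term was dropped, and 0 without array 1. The corticosteroid carrier gene Serpina6 had 0.45 ± 0.45, and the antiplasmin gene Serpinf2, of the same clade as Serpinf1, had -0.00 ± 1.25.

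Among clade A relatives of Serpina12, Serpina1d split by dye orientation. It had 0.70 and 0.89 on arrays 1 and 2 but -2.60 and -1.89 on arrays 3 and 4. Serpina1d belongs to a cluster of near-identical antitrypsin genes, and its probe may not tell them apart. Serpina1f ranged from -3.56 to 2.43 and Serpina3a had -0.46 ± 0.90. Of the intracellular clade B, the elastase inhibitor gene Serpinb1a had -0.75 ± 1.25 and Serpinb12 -0.72 ± 1.26. In each of these 5 genes the signs were mixed and the SD exceeded the size of the mean.

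**Figure D4:**
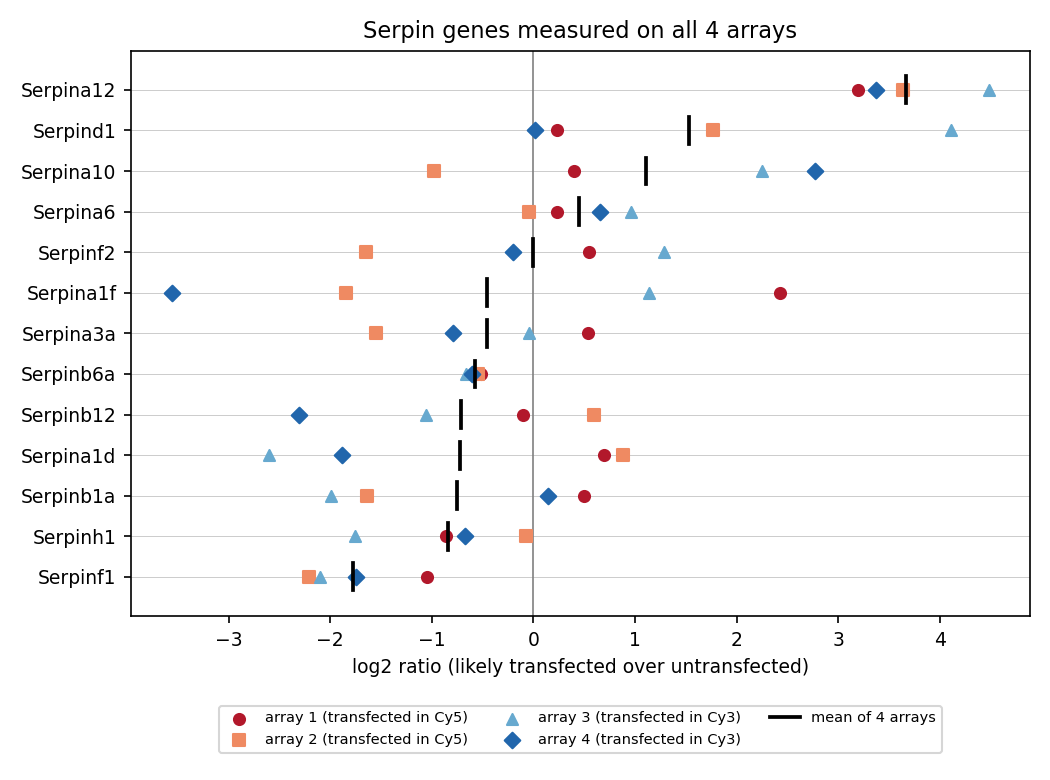
Log2 ratio (x axis) on each of the 4 arrays for the 13 serpin genes measured on all of them, ordered by mean, with the vertical bar giving the mean. Serpina12 is the highest at 3.67 and Serpinf1 the lowest at -1.77, and the arrays of most other members lie on both sides of 0.

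Of 5 listed partners of vaspin, 3 were measured, and the protease genes Klk7 and Klk14 were not among them. Hspa5, which encodes the chaperone GRP78 that has been described as a cell-surface receptor of vaspin, had -0.14, -2.33, -1.98 and -2.23 on arrays 1 to 4. Array 1 lay near 0 and the other 3 arrays near -2.2, with a mean of -1.67 ± 1.03 (limma adjusted p = 0.362). Dnajc1, a co-chaperone of GRP78, and the channel gene Vdac1 had means of 0.42 ± 0.34 and 0.31 ± 0.49 with mixed signs. At an unadjusted p under 0.05, limma had 1 of these 3 on the lower side (background 7.49%). Like Serpinf1, Hspa5 was read 3 rows higher on arrays 2 to 4.

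Of 9 listed receptors and ligands of PEDF, 4 were measured, and all 4 had 1 sign on all 4 arrays, as had 22.6% of all genes. Both chains of type I collagen, the matrix protein that PEDF binds, were far below 0. Col1a1 had -6.38, -3.14, -5.79 and -4.32 on arrays 1 to 4, a mean of -4.91 ± 1.46 (limma adjusted p = 0.161). Col1a2 had -4.31, -3.41, -2.82 and -2.91, a mean of -3.36 ± 0.69 (limma adjusted p = 0.105). These collagen ratios were larger in size than that of Serpinf1 on every array. The laminin receptor gene Rpsa had 0.39 ± 0.19 and the ATP synthase subunit gene Atp5b 0.22 ± 0.18, both described as cell-surface receptors of PEDF and both slightly above 0 on every array. The sign of ratios this small depends on the centring of the arrays, which is not stated. On array 1 Atp5b (0.07) lay below the median of the tested genes (0.095). No gene of either list passed limma at an adjusted p under 0.05, and at an unadjusted p under 0.05 the collagen genes were 2 of the 4, on the lower side, where all genes had 7.49%.

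Secreted protease inhibitors outside the serpin family were compared next, because vaspin belongs to the same functional class. Of 27 listed, 14 were measured, with a median of -0.21. Below 0 on all 4 arrays were 4 of the 14, and 0 were above 0 on all 4, where all genes had 13% and 9.58%. Timp3, an inhibitor of matrix metalloproteinases, had -2.27, -4.09, -5.51 and -4.00 on arrays 1 to 4, a mean of -3.97 ± 1.33 (limma adjusted p = 0.161). Itih2, a heavy chain of the inter-alpha-trypsin inhibitor that is carried on hyaluronan, had -0.98, -4.37, -5.86 and -2.73, a mean of -3.48 ± 2.10 (limma adjusted p = 0.303). The cathepsin inhibitor gene Cst3 (cystatin C) had -0.90 ± 0.20 and Wfdc2 -0.49 ± 0.68. Limma had 3 of the 14 at an unadjusted p under 0.05, all lower, against 7.49% of all genes. The other 10 had mixed signs, with means from -1.37 (Slpi) to 0.90 (Itih5).

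**Figure D5:**
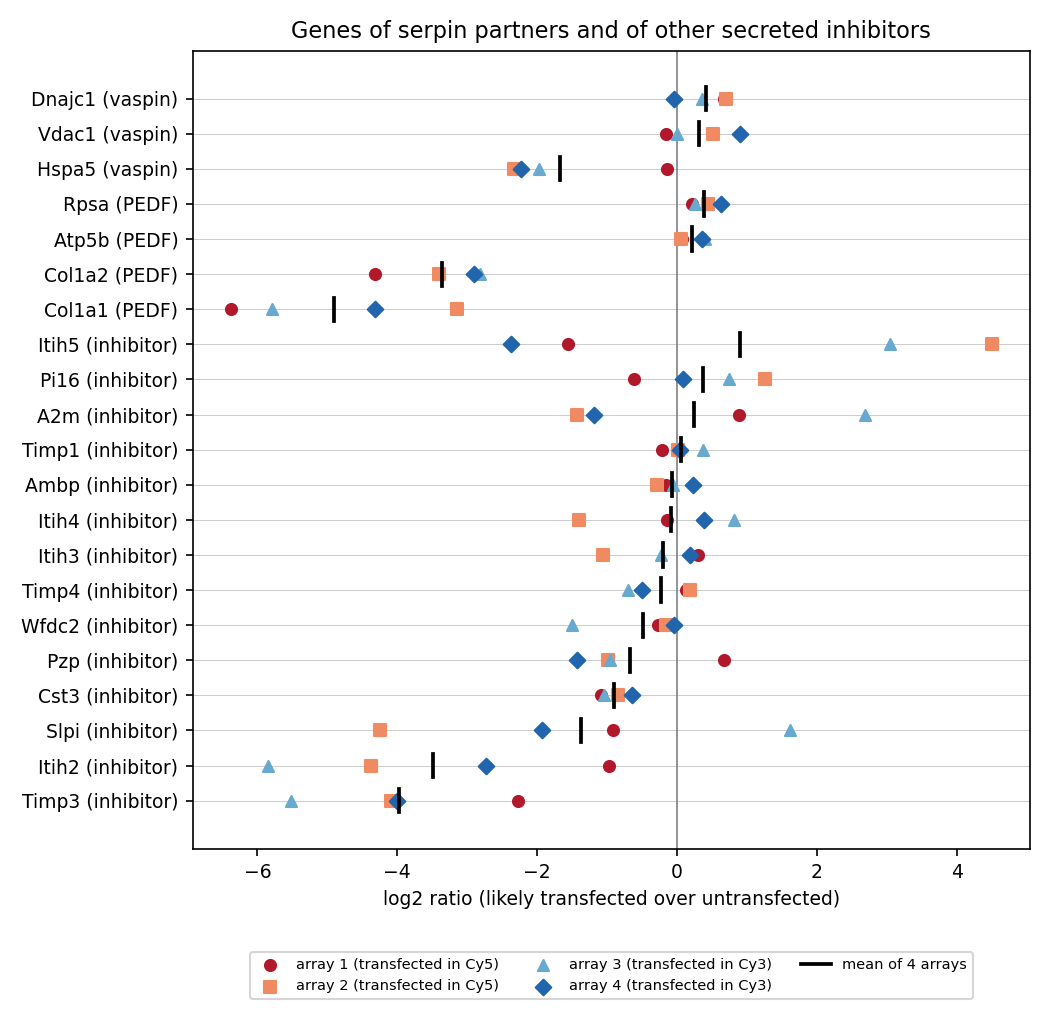
Log2 ratio (x axis) on each of the 4 arrays for measured genes of vaspin partners, PEDF receptors and ligands, and other secreted protease inhibitors, with the vertical bar giving the mean. Col1a1 (-4.91), Timp3 (-3.97), Itih2 (-3.48) and Col1a2 (-3.36) are the lowest, and no mean shown is above 0.90 (Itih5).

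Target proteases and clearance receptors of serpins were thinly measured, with 3 of 23 on all 4 arrays, and their signs were mixed. The endocytic receptor gene Lrp1 had -0.93 ± 1.20, with 0.06 in the mean of arrays 1 and 2 and -1.92 in that of arrays 3 and 4, and was the 1 gene of the 3 at an unadjusted p under 0.05 in limma (background 7.49% lower). The thrombin receptor gene F2r had -0.52 ± 1.12 and the factor X gene F10 0.65 ± 1.54. Of 17 angiogenesis factors and inhibitors 4 were measured, and Adamts1, which encodes a protease that blocks vessel growth, was below 0 on all 4 arrays at -1.20 ± 0.81 (limma adjusted p = 0.395), the 1 of the 4 at an unadjusted p under 0.05. Nrp2, Vegfb and Col18a1 had means between -0.51 and 0.24 with mixed signs.

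The genes whose 4 values came closest to those of each serpin were found by the root mean square difference over the 4 arrays, which are repeats of 1 comparison. For Serpina12 the nearest was Klf5, a transcription factor gene, with 2.09, 2.72, 2.44 and 2.37 on arrays 1 to 4 and a difference of 1.35 log2 units. Next came Gpnmb (transmembrane glycoprotein, 1.64), Adam19 (metalloproteinase, 1.64), Prkg2 (cGMP-dependent protein kinase, 1.74) and Sox9 (transcription factor, 1.82). All 5 had means from 1.94 to 2.40, and that these lie below Serpina12 was fixed by its having the highest mean of all genes. Serpinf1, whose mean lies where more genes are found, had closer neighbours. The nearest was the choline transporter gene Slc44a1, with -1.35, -1.93, -1.83 and -1.64 and a difference of 0.246. It was followed by the glycine transporter gene Slc6a9 (0.255), Tspan31 (tetraspanin, 0.271), Map1lc3a (autophagy protein, 0.274) and Ero1a (oxidase of the endoplasmic reticulum, 0.316). In each of these 5 genes, as in Serpinf1, array 1 was the value nearest to 0. Their choice by closeness to the Serpinf1 values favours this likeness.

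Across the series, between 76.8% and 94.6% of 20355 probes had a value on an array, and array medians lay between -0.23 and 0.14. The ratios hold no levels, so the fibroblast identity of the cells could not be read from them. Of 10 fibroblast markers 8 were measured, with a median of -0.06. Vim (0.66 ± 0.18) was above 0 on all 4 arrays. Col3a1 (0.89 ± 1.36), Pdgfra (0.45 ± 1.85) and S100a4 (0.24 ± 0.80) had means above 0 with mixed signs. The 4 below 0 on all 4 (background 13%) were Col1a1, Col1a2, the fibronectin gene Fn1 (-3.89 ± 0.36) and Fap (-0.36 ± 0.25), and limma had the first 3 at an unadjusted p under 0.05 (background 7.49% lower). No probe of Erbb2 was analysed here, so the labels were not checked by the transfected gene.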

How the data were processed

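Transfected and untransfected NIH3T3 RNA was compared on 4 two-colour arrays. The values the authors deposited are log2 ratios with unstated centring; the software for image analysis, and any background correction or normalization by the authors, is not given in the sources used here. This log2 scale was read from the values: capped ratios lie 16.61 units, about log2 of 100000, from an array's commonest other value (0.522, 0.548, -0.899 and -0.274 on arrays 1 to 4), which may be a 1:1 ratio moved by a constant. Signs and folds are those of the values as deposited; with arrays centred on their medians Serpina12 had 3.727 and Serpinf1 -1.718. Values beyond 15 either way, 63 to 121 an array, are capped ratios and were dropped. Rows 1 to 6000 were used as they stand; in rows 8001 to 18000 arrays 2 to 4 were read 3 rows higher, and from row 18301 4 rows higher; 2300 rows were left out. Of 20355 probes, 14030 had 1 symbol in the platform annotation, and 13994 of these were matched to RefSeq gene identifiers. Probes of a gene were averaged, and 6327 genes with a value on all 4 arrays were fitted with limma 3.58.1 (R 4.3.3), with a mean and a dye term, and Benjamini-Hochberg adjustment. The fit was tested on simulated data. Besides both serpins, named genes are the other measured serpins, list members with 1 sign on all 4 arrays, and the 5 genes nearest to each serpin; others are named as examples. Motifs were searched with Python 3.11.15. The number of arrays limits the precision. The genes and lists were chosen with earlier results of these data known.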

Additional observations from a re-analysis of the deposited data

Results flagged for a closer look

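Of 76 genes checked, 6 had 1 array far from the other 3 by the gap to the nearest array over the range of the 4. A nominal 5% of independent values, or 3.8 of 76, would pass this limit, and these genes were not chosen independently. Hspa5 had a ratio of 0.838, with -0.14 on array 1 and values between -2.33 and -1.98 on the others. Slc6a9 had 0.862, with -0.80 on array 1 and values between -1.87 and -1.72 on the others. Apoa2 had 0.871, with -1.86 on array 3, and Wfdc2 had 0.848, with -1.498 on array 3. Pecam1 had 0.856, with -1.34 on array 1, and Nrp2 had 0.837, with -0.24 on array 2. Neither Serpina12 (0.657) nor Serpinf1 (0.596) passed the limit.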

How the results depend on the processing

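The mean of Serpina12 was 3.67 and lay between 3.392 and 3.948 without 1 array, and it kept its sign in every alternative run. Where 1 array was left out, each gene mean here is the average of the means of both dye orientations, not of the remaining arrays. Serpinf1 (-1.774) lay between -2.064 and -1.485 without 1 array, was -0.101 with rows as deposited and had no value in the first 6000 rows. In alternatives chosen after seeing the data it was -0.4045 with arrays 2 to 4 read 2 rows higher and 0.697 with 4 rows. Limma's count of 0 genes became 3 with arrays scaled to a common spread or with the median over probes, 6 when the dye term was dropped and 6 with probes fitted singly; it was 0 without any 1 array. Genes at an unadjusted p under 0.05 (730) numbered 276 in the first 6000 rows, where fewer genes were tested, and 355 (without array 2) to 981 (without array 4) when 1 array was left out. The median of the other serpins (-0.461) became 0.13 with rows as deposited (9 genes), 0.1345 in the first 6000 rows (2 genes) and -0.5868 to 0.2675 without 1 array, the last without array 2. Their count at an unadjusted p under 0.05 (1) was 2 with rows as deposited, 2 with probes fitted singly, 0 when that term was dropped and 0 to 2 without 1 array. The median of the partner and pathway lists (-0.2154) stayed below 0 in every alternative run and was -0.3548 to -0.1388 without 1 array. Leaving out an array also changed which genes were measured. Other causes were not tested. Each ratio already pairs the transfected with the untransfected sample on 1 array. No further pairing was possible because the arrays form 1 group. With 4 arrays of 1 sample per line, nothing here covers the spread between cultures.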

Other observations

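Vaspin was first described in fat tissue, and listed genes of that tissue were thinly measured. Of 13 listed adipokines 4 were measured, all with mixed signs: Retn (resistin) had 0.24 ± 1.20, Lcn2 -0.77 ± 1.17, Itln1 -0.21 ± 0.48 and Metrnl -0.22 ± 0.44. Of 12 adipocyte markers 4 were measured, also with mixed signs. Fabp4, a fatty acid binding protein gene, had 0.27 ± 0.79, Plin1 -0.65 ± 0.75, Lpl -0.64 ± 1.44 and Cidec -0.25 ± 2.32. Limma had 0 of these 8 genes at an unadjusted p under 0.05 and 0 at an adjusted p under 0.05. The 4 adipocyte markers had a median of -0.44, with 3 means below 0. Outside both lists, and named after their values were seen, the lipase gene Lipe (2.84 ± 2.47) and Aebp1 (2.58 ± 1.77) had the means next below that of Serpina12. Markers of hepatocytes, where many circulating serpins are made, had a median of -0.73 over 3 measured genes, and Apoa1 (-0.83 ± 0.56) and Apoa2 (-0.73 ± 0.76) were below 0 on all 4 arrays. The median was 0.35 over 3 epithelial and keratinocyte markers, with Epcam at -0.52 ± 0.33 and below 0 on all 4 arrays. It was -0.70 over 2 macrophage markers, with Lyz2 at -1.17 ± 0.70 and below 0 on all 4, and 0.07 over 3 endothelial markers. At an unadjusted p under 0.05, limma had 1 of the 3 hepatocyte markers (Apoa1, lower), 1 of the 3 epithelial ones (Cldn3, higher), 1 of the 2 macrophage ones (Lyz2, lower) and 0 endothelial ones, where all genes had 7.49% lower and 4.05% higher. Their part in the serpin ratios was not tested.

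Serpins missing on at least 1 array gave partial values. Serping1, which encodes the C1 inhibitor, had 2.52 on array 1, -0.19 on array 3 and 3.71 on array 4. Serpinb2, which encodes a plasminogen activator inhibitor, had 2.91 on array 2 and -2.65 on array 3. Serpini1 (neuroserpin) had -1.91 on array 2 and -1.54 on array 4.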
